A study of Arabidopsis thaliana with 4 samples.

Results

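The loci described here are 170 young MIR loci of Arabidopsis thaliana that lie outside protein-coding genes, out of 326 annotated nuclear MIR genes and 37899 annotated nuclear genes. They were taken from the annotation by symbol, from MIR404 upwards with MIR408, MIR827 and MIR857 excepted, and must not overlap a protein-coding gene that is read in their own direction. Of 222 MIR genes with such numbers, 52 overlapped a protein-coding gene on their own strand and were left to the host-gene class. A high number stands in for a late discovery and usually for a narrow conservation, so the set also holds conserved loci such as MIR2111a and MIR2111b. Beside the lower edge of the rule, MIR404 inside it had fold changes of 1.197 in the promoter and 1.18 downstream, and outside it MIR403 had 4.41 and 2.67 and MIR401 had 0.774 and 0.729. The material was leaves of 21-day-old hyl1-2 plants (the SALK_064863 T-DNA insertion, a knock-out of HYL1) and of WT Col-0 plants of the same age, and chromatin bound by RNA polymerase II (RNA Pol II) was sequenced after precipitation with an antibody against its total pool. Each genotype had 1 ChIP and 1 input library, so no test between genotypes was possible, and every interval printed covers the counting error of the reads only.

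MicroRNAs are cut from hairpins in long primary transcripts that RNA Pol II makes. In plants the nuclear enzyme DCL1 does the cutting, and HYL1, a double-stranded RNA binding protein, helps it to find the right positions, so that hyl1 mutants hold uncut primary transcripts and little mature miRNA. Conserved MIR families are mostly strongly transcribed and control transcription factors. Young MIR loci arose recently, many from inverted duplications of protein-coding genes or from transposons, and most give few copies of their miRNA and have few known targets.

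All 170 members had a mature sequence in the RefSeq annotation of TAIR10.1, with 203 mature sequences in all and 174 different seeds (bases 2 to 8, which are in capitals in the sequences printed here). Most were 21 nt long (152 sequences), 10 were 24 nt long, and 109 began with U. There were 15 seeds shared by more than 1 locus, over 42 loci. The sequences that follow belong to the loci on which the ChIP-seq results turn, first those where RNA Pol II was higher in hyl1-2 and then the repeated families.
miR779.1: uUCUGCUAuguugcugcucau
miR779.2: uGAUUGGAaauuucguugacu
miR5026: aCUCAUAAgaucgugacacgu
miR850: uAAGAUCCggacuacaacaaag
miR863-3p: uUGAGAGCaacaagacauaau
miR8166: aGAGAGUGuagaaaguuucuca
miR775: uUCGAUGUcuagcagugcca
miR847: uCACUCCUcuucuucuugaug
miR825: uUCUCAAGaaggugcaugaac
miR854a to miR854e: gAUGAGGAuagggaggaggag
miR8167a to miR8167f: aGAUGUGGagaucguggggaug
miR5645a: aUUUGAGUcaugucguuaag
miR5645c: aACCUAUUuaacgacaugacu
miR405a, miR405b and miR405d: aUGAGUUGggucuaacccauaacu
miR447a-3p: uUGGGGACgagauguuuuguug
miR447c-3p: uUGGGGACgacaucuuuuguug
No seed was shared between the first 9 of these sequences. The 5 MIR854 loci, the 6 MIR8167 loci and the 3 MIR405 loci each gave 1 identical mature sequence. MIR5645c was annotated with a sequence of another seed than the other 5 MIR5645 loci.

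The libraries held 30333558 (hyl1-2 ChIP), 37717174 (WT ChIP), 22766187 (hyl1-2 input) and 17734005 reads (WT input). Reads were counted in the 200 bp before the annotated 5′ end (called promoter here, although the 5′ end in the annotation is that of the hairpin or of a short transcript and not a mapped start site) and from 200 to 1000 bp after it (called downstream). Fold change means ChIP over input, in RPM (reads divided by all reads of the library), in hyl1-2 over WT. The median member had 88.5 and 101.5 ChIP reads (hyl1-2, WT) in its promoter and 213 and 240.5 downstream, and its 95% interval reached from its fold change divided by 1.59 to its fold change times 1.59 in the promoter and 1.33 downstream. As a check of the leaf label, 10 leaf genes of photosynthesis had a median downstream ChIP over input of 2.01 in hyl1-2 and 0.964 in WT. The 4 seed storage and oil body genes, which leaves do not use, lay between 0.895 and 1.28 in hyl1-2 and between 1.74 and 1.99 in WT, and the 5 root genes between 0.861 and 1.27 in hyl1-2 and between 1.21 and 2.12 in WT. The 4 flower genes lay between 0.270 and 0.987 in hyl1-2 and between 0.364 and 1.07 in WT, with a WT median of 0.750. In the WT library the seed and root markers thus did not follow the label, while the flower median lay below that of the leaf genes. What part this has in the fold changes of MIR loci was not tested. HYL1 itself had 5.34 in hyl1-2 and 0.990 in WT downstream, which does not check an insertion allele.

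Over the promoters of the young MIR loci RNA Pol II had similar medians in hyl1-2 and WT when all reads were the base, with members on both sides. The median ChIP over input was 0.918 in hyl1-2 and 0.878 in WT, and the median fold change was 0.04 on the log2 scale (95% interval −0.07 to 0.20). Of 168 members with at least 10 reads in each library, 65 lay above 1.2 (38.7%) and 46 below 0.8 (27.4%), where 50.6% of 36794 gene promoters lay above and 18.5% below (58.6% and 11.7% of protein-coding ones). The interval stood wholly above 1 at 26 members and wholly below 1 at 20, against 26.7% and 6.19% of gene promoters (30.8% and 2.67% of protein-coding ones). The split at 1.2 and 0.8 depends on the scaling: with intergenic windows as the base 46 promoters of young loci were above 1.2 and 61 below 0.8, and with a correction for GC content 40 and 67. With that correction the median was −0.19 (−0.32 to −0.08), an interval wholly below 0. These shares describe the 4 libraries and were not tested against each other.

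Downstream, the share of members above 1.2 was close to that of all genes. ChIP over input had a median of 0.849 in hyl1-2 and 0.838 in WT, and the median log2 fold change was −0.05 (−0.12 to 0.01). Of 170 members 49 lay above 1.2 (28.8%) and 37 below 0.8 (21.8%), beside 28.3% and 28.1% of 37895 genes (30.3% and 22.6% of protein-coding ones). With intergenic windows as the base these numbers were 40 and 62, and the median log2 fold change was −0.21 (−0.28 to −0.16). Intervals wholly above 1 were found at 39 members and wholly below 1 at 27, beside 21.1% and 22.4% of genes (22.6% and 17.1% of protein-coding ones). The 100 other MIR loci outside protein-coding genes, which hold the conserved families, gave another picture: 48 lay above 1.2 and 7 below 0.8, their median log2 fold change was 0.22 (0.10 to 0.47), and their median ChIP over input was 0.804 in hyl1-2 and 0.651 in WT. In the promoter window both classes were alike in their medians (0.04 for the young loci, 0.06 for the others), but only 2 of 100 other MIR promoters had an interval wholly below 1, where 20 of 168 young ones did.

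**Figure D1:**
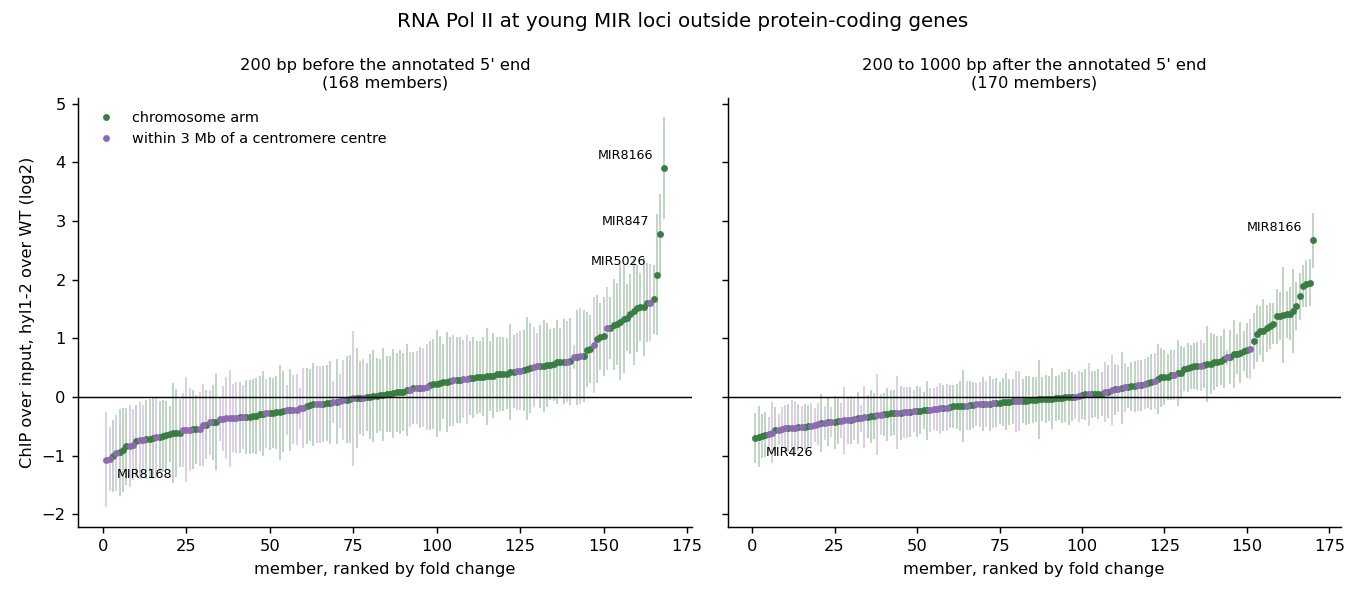
Fold change (ChIP over input, hyl1-2 over WT, log2 axis) of each young MIR locus, ranked, in the promoter window (168 members, left) and the downstream window (170 members, right). Points are members, vertical lines are 95% counting intervals and colours give chromosome position; MIR8166 stands highest in both windows, and most members on either side of 0 have lines that cross it.

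The level profile around the 5′ end showed the same contrast. Summed over the 170 young loci, ChIP over input stayed between 1.02 and 1.12 in hyl1-2 and between 0.911 and 1.08 in WT in all 50 bp bins from 1000 bp before to 1000 bp after the 5′ end, with a fold of 1.03 to 1.13. Over the 100 other MIR loci the 2 genotypes were close at the 5′ end and apart behind it: from 500 to 550 bp after it the ratio was 1.02 in hyl1-2 and 0.669 in WT, a fold of 1.52. These sums are weighted towards loci with many reads, such as the MIR854 copies and MIR5642a, whose windows are filled to the limit in every library. Without MIR5642a, ChIP over input stayed between 1.03 and 1.13 in hyl1-2 and between 0.942 and 1.12 in WT, with a fold of 0.9997 to 1.11.

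**Figure D2:**
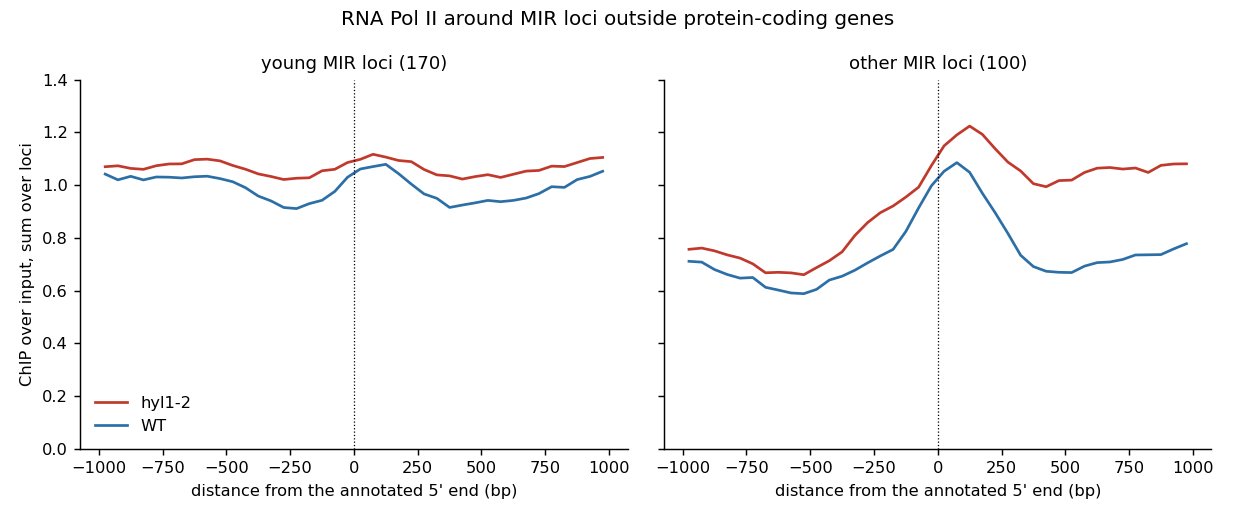
ChIP over input in 50 bp bins (reads summed over loci) against the distance from the annotated 5′ end, for hyl1-2 and WT, at the 170 young MIR loci (left) and the 100 other MIR loci outside protein-coding genes (right). The lines of the young loci stay near 1 with a small gap throughout, and those of the other loci part behind the 5′ end.

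Of 168 members tested in both windows, 54 had fold changes above 1 in both and 60 below 1 in both. Members above 1.2 in both numbered 34, members below 0.8 in both 19, and 4 were called in opposite directions (3 above in the promoter and below downstream, 1 the reverse). The interval was above 1 in both windows at 21 members and below 1 in both at 7. Without MIR5642a, which is void as described further on, 20 were above. At no member did the 2 intervals point in opposite directions. No share over all genes was counted for calls in both windows, so these counts cannot show whether the members differ from other genes. ChIP reads carry no strand of transcription, so a window that a second gene shares cannot be assigned to the MIR locus: 34 promoter windows and 64 downstream windows overlapped a protein-coding gene, and 98 members had neither. Among those 98, of which 97 passed the minimum in both windows, 34 were above 1.2 and 29 below 0.8 in the promoter, and 24 were above and 27 below downstream (all genes: 50.6% and 18.5% in the promoter, 28.3% and 28.1% downstream).

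Of those loci without a protein-coding gene in either window, 10 had intervals above 1 in both: MIR779, MIR863, MIR8121, MIR4228, MIR8176, MIR850, MIR5026, MIR5016, MIR825 and MIR4221. All 10 lie on chromosome arms, where 60 of the 98 loci without a protein-coding gene in either window lie. Their downstream fold changes ran from 3.28 (MIR779) to 1.39 (MIR4221). MIR779 (AT2G22496) lies on chromosome 2 at 9560761 to 9560923 (TAIR10), plus strand, 1851 bp from the nearest protein-coding gene, UCP5, which encodes a mitochondrial uncoupling protein. Its downstream window held 419 ChIP reads in hyl1-2 and 161 in WT, over 191 and 151 input reads, so that ChIP over input was 1.65 in hyl1-2 and 0.501 in WT, 3.28 times as high (2.48 to 4.35). In its promoter 120 ChIP reads in hyl1-2 and 58 in WT over 68 and 55 input reads gave 2.67 (1.66 to 4.29). The gap between the genotypes at MIR779 was widest away from the hairpin: 850 to 900 bp after the 5′ end the ChIP libraries had 4.91 RPM in hyl1-2 and 1.54 RPM in WT, over 2.24 and 2.37 RPM of input.

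MIR5026, MIR850 and MIR863 stand in a row on the plus strand of chromosome 4, from 7844496 to 7846899, within 2404 bp, and all 3 overlap 1 annotated non-coding RNA gene, AT4G13495. They are thus not independent, and the downstream window of MIR850 also covers part of MIR863. miR863-3p is known from Arabidopsis immunity, where it targets kinase genes and SERRATE, a partner of HYL1 in miRNA processing. MIR863 had 576 downstream ChIP reads in hyl1-2 and 244 in WT over 157 and 122 input reads, or 2.75 and 0.940 times input, which is 2.93 times as high (2.21 to 3.87). Its promoter ChIP over input was 3.52 in hyl1-2 and 1.38 in WT (2.55, 1.71 to 3.80). MIR850, which the naming rule did not call for and which is named for its place in the row, had 2.56 in hyl1-2 and 1.08 in WT downstream (2.38, 1.86 to 3.03). MIR5026 had 2.40 and 1.04 (2.31, 1.75 to 3.05), and its promoter, low in both genotypes with 45 ChIP reads in hyl1-2 and 13 in WT over 65 and 50 input reads, gave 4.25 (2.07 to 8.72). RNA Pol II was therefore higher in hyl1-2 along the whole row, before the first hairpin and behind the last.

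**Figure D3:**
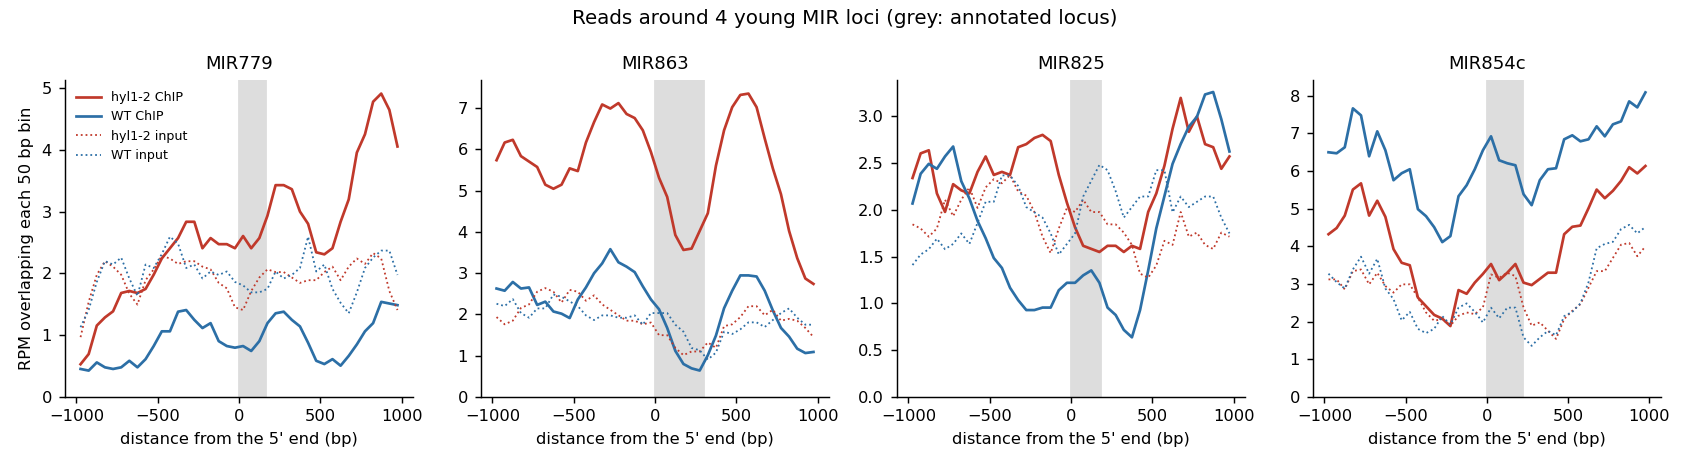
RPM of reads overlapping each 50 bp bin against the distance from the 5′ end at MIR779, MIR863, MIR825 and MIR854c, for the ChIP libraries (solid lines) and inputs (dotted lines) of hyl1-2 and WT; grey marks the annotated locus. At MIR779 and MIR863 the hyl1-2 ChIP line lies above the WT ChIP line throughout (4.91 against 1.54 RPM at 850 bp of MIR779), at MIR825 it does so around the 5′ end, and at MIR854c it lies below.

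MIR825 (chromosome 2, 11159660 to 11159845, plus strand) encodes a miRNA that Arabidopsis lowers on contact with bacteria. It overlaps a transcribed pseudogene, AT2G26220, on its strand. Its promoter held 114 ChIP reads in hyl1-2 and 64 in WT over 71 and 51 input reads, giving 2.04 (1.27 to 3.28), and downstream ChIP over input was 1.22 in hyl1-2 and 0.844 in WT (1.45, 1.11 to 1.90). MIR5016 (chromosome 2, 9919984 to 9920197) had lower levels in both genotypes: promoter ChIP over input was 0.960 in hyl1-2 and 0.316 in WT (3.04, 1.91 to 4.85), and downstream it was 0.615 and 0.292 (2.104, 1.502 to 2.95). MIR8121 and MIR1887 had some of the lowest levels of all members, with 0.252 and 0.213 times input downstream in hyl1-2 and 0.0910 and 0.0807 in WT. Their fold changes of 2.77 and 2.64 rested on 54 and 40 ChIP reads in hyl1-2 and on 30 and 23 in WT.

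Members that share their strand with an annotated non-coding gene, an overlap looked at after the values had been seen, numbered 18. Of these 12 were above 1.2 downstream and 3 below 0.8, next to 28.3% and 28.1% of all genes, and the 12 include the 3 loci in AT4G13495. They also include MIR5642a, whose value is void. The deposited reads hold at most 1 read for each position and strand, and the MIR5642a promoter window held 798 of 798 possible ChIP reads in both genotypes and 748 of 748 input reads. Its downstream window held 1998 of 1998 ChIP reads in both. Its fold changes, 1.596 in the promoter and 1.595 downstream, are then the ratio of the library totals and no measure of RNA Pol II. Without MIR5642a, 64 promoters and 48 downstream windows of the young loci lay above 1.2, and 25 and 38 had intervals wholly above 1.

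The highest fold changes of all were found where a protein-coding gene lies close. MIR8166 (AT1G04993, chromosome 1, 4525271 to 4525360, minus strand) starts 54 bp behind the 3′ end of RTFL17 on the same strand, a gene of the small peptides that restrict organ growth. Its promoter window, which overlaps RTFL17, held 278 ChIP reads in hyl1-2 and 20 in WT over 61 and 41 input reads, or 3.42 (2.59 to 4.51) and 0.229 (0.134 to 0.391) times input, and the fold change was 14.9 (8.17 to 27.2). Downstream, with no protein-coding gene, ChIP over input was 1.54 in hyl1-2 and 0.243 in WT (6.36, 4.61 to 8.76). In the bin 500 bp before MIR8166, inside RTFL17, the ChIP libraries had 10.8 RPM in hyl1-2 and 2.70 RPM in WT. RNA Pol II was thus higher in hyl1-2 in RTFL17 too, and reads of the 2 loci cannot be told apart.

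MIR847 (AT1G07051, chromosome 1, 2165517 to 2165746), whose miRNA targets the auxin response repressor IAA28, had the second highest promoter value. The promoter held 162 ChIP reads in hyl1-2 and 42 in WT over 67 and 75 input reads, which is 1.81 and 0.263 times input and a fold change of 6.89 (4.29 to 11.1). Downstream it was 0.538 in hyl1-2 and 0.319 in WT (1.68, 1.17 to 2.42), in a window shared with DFO on the other strand. AT1G07050, a CCT motif gene on the minus strand, begins 256 bp before MIR847 and points away from it, and 750 bp before MIR847, inside AT1G07050, ChIP reads stood at 11.3 RPM in hyl1-2 and 1.56 RPM in WT. MIR5657, which lies inside DEG14 on the other strand, was higher in the promoter only, with 1.88 times input in hyl1-2 and 0.618 in WT (3.04, 1.93 to 4.80). Its downstream value, within the body of DEG14, was 0.918 (0.703 to 1.199).

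MIR775, MIR8167c and MIR868 were high downstream, where each window overlaps the end of a protein-coding gene on the other strand. miR775 targets a galactosyltransferase gene. MIR775 had 431 ChIP reads in hyl1-2 and 155 in WT, or 1.61 and 0.416 times input (3.86, 2.94 to 5.08), with the 3′ end of AT1G78210, an alpha/beta-hydrolase gene, in the window. Its promoter, where no such gene lies, was also higher, at 2.42 times input in hyl1-2 and 0.762 in WT (3.18, 2.11 to 4.78). MIR8167c had 2.08 in hyl1-2 and 0.545 in WT downstream (3.82, 2.91 to 5.03), in a window shared with IDD2, a zinc finger gene, and 1.31 and 1.03 in the promoter (1.27, with an interval that held 1). MIR868 had 3.09 in hyl1-2 and 0.834 in WT downstream (3.71, 2.88 to 4.76), in a window shared with PMT5, a polyol and sugar transporter gene, and its promoter gave 1.75 (1.13 to 2.72). Further members with intervals above 1 in both windows and a protein-coding gene close by were MIR5651 (2.26 in the promoter, 1.67 downstream), MIR5999 (2.52 and 1.72), MIR5012 (2.84 in the promoter, 2.59 downstream), MIR5658 (2.90 and 2.19), MIR865 beside the flowering gene CO (2.91 and 1.54) and MIR5663 (1.51 and 1.44). At MIR8167c and MIR868 the fold change was thus higher in the window that a second gene shares.

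**Figure D4:**
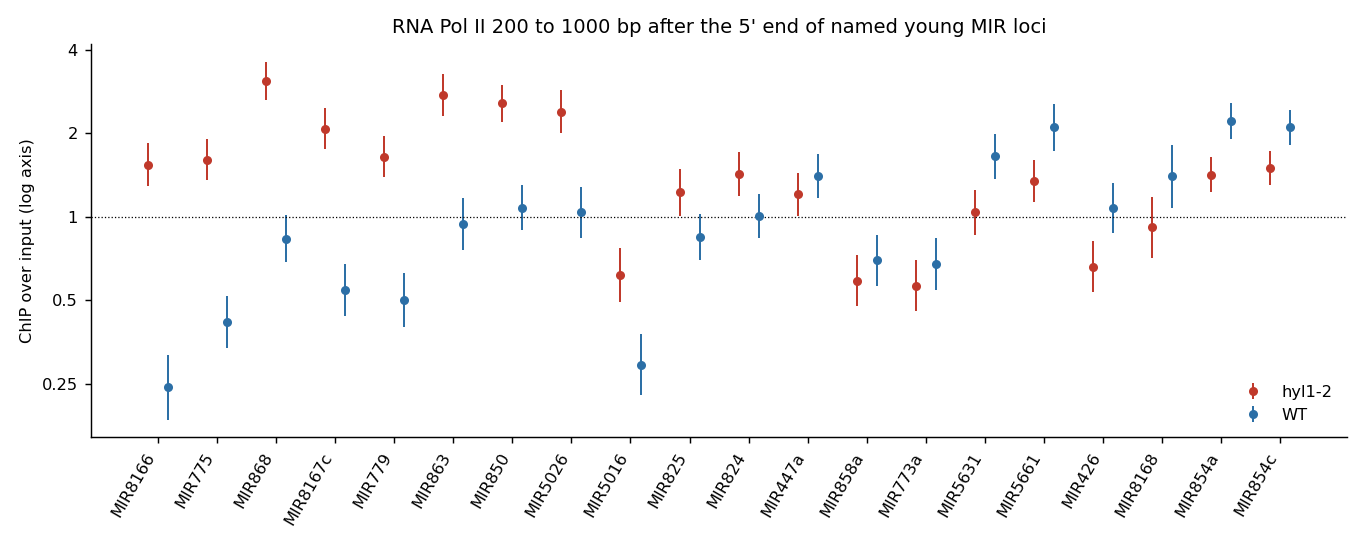
ChIP over input (log axis) from 200 to 1000 bp after the 5′ end of 20 young MIR loci, in hyl1-2 (left point of each pair) and WT (right point), with 95% counting intervals; the dotted line is 1. From MIR8166 to MIR5016 the hyl1-2 lines lie wholly above the WT lines, from MIR825 to MIR773a the lines touch or overlap, and from MIR5631 to MIR854c the hyl1-2 points lie below the WT points.

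Members that were lower in hyl1-2 changed less, and no fold change lay under 0.475. In the promoter the lowest were MIR8168 with 0.475 (0.271 to 0.832), MIR854c with 0.477 (0.327 to 0.697), MIR8178 with 0.496 (0.324 to 0.760), MIR5645e with 0.516 (0.329 to 0.809), MIR8171 with 0.520 (0.311 to 0.868) and MIR8167d with 0.535 (0.325 to 0.880). MIR8168, on chromosome 2 and 7978 bp from the nearest protein-coding gene, had 33 promoter ChIP reads in hyl1-2 and 80 in WT over 61 and 44 input reads, and was also lower downstream (0.655, 0.455 to 0.943). MIR8171 and MIR8178 were lower in the promoter only, with downstream fold changes of 0.874 (0.667 to 1.15) and 0.981 (0.749 to 1.29). Downstream the lowest were MIR426 with 0.615 (0.456 to 0.829), MIR8172 with 0.625 (0.435 to 0.896), MIR5631 with 0.629 (0.483 to 0.820), MIR5661 with 0.641 (0.493 to 0.833), MIR854a with 0.643 (0.522 to 0.791) and MIR8168. MIR426, 6215 bp from any protein-coding gene, had 156 ChIP reads in hyl1-2 and 295 in WT over 177 and 129 input reads. Of the downstream reads of MIR8172, 57.1% had mapping quality 0 and may come from other places. The promoter interval of MIR8172 held 1 (0.833, 0.476 to 1.46). MIR5631 lies inside AO1, an aldehyde oxidase gene, and MIR5661 inside AT4G19080, both on the other strand, so their reads are shared with those genes. In the promoter MIR5631 had a fold change of 1.62, in the opposite direction, with an interval that held 1.

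Of the 98 loci without a protein-coding gene in either window, 60 lie on arms and the rest near centromeres. Intervals below 1 in both windows were found at 6 of the 98, namely MIR426, MIR8168, MIR8175, MIR5029, MIR854c and MIR854d. All of these 6 but MIR426 lie near centromeres. Of their downstream reads 99.9% (MIR854c), 97.3% (MIR854d), 78.0% (MIR5029) and 41.8% (MIR8175) had mapping quality 0, so that MIR854c and MIR854d do not count as separate loci and reads of the others may come from other places. The seventh member that was lower in both was MIR3440b, with 0.624 (0.410 to 0.950) and 0.675 (0.514 to 0.886), in a transcribed pseudogene.

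Loci near centromeres and loci on chromosome arms had different medians. Of the 170 members 51 lie within 3 Mb of a centromere centre, and 119 lie on chromosome arms. Downstream, 5 of the 51 loci near centromeres were above 1.2 and 19 below 0.8, with a median log2 fold change of −0.22 (−0.35 to −0.12), and 44 of the 119 on arms were above and 18 below, with a median of 0.00 (−0.05 to 0.18). In the promoter the medians were −0.19 near centromeres (13 above, 21 below of 51) and 0.16 on arms (52 above, 25 below of 117), where protein-coding genes had 40.2% above and 23.8% below near centromeres and 61.0% and 10.09% on arms. Without MIR5642a, whose value is void, 12 loci near centromeres were above 1.2 in the promoter and 4 downstream. The same order held for protein-coding genes, with 22.3% above and 33.6% below downstream near centromeres and 31.4% and 21.2% on arms. It did not hold for the other MIR loci, of which only 8 lie near centromeres. Their medians there were 0.35 in the promoter (−0.42 to 1.15) and 0.27 downstream (−0.46 to 2.33), against 0.05 and 0.22 on arms. Reads with several places in the genome are frequent near centromeres. Over the 39 loci there with at most 50% of downstream reads of mapping quality 0, the median was −0.20 (−0.27 to −0.08). Of these 39, 4 were above (10.3%) and 10 below (25.6%), where the shares over all 51 were 9.80% and 37.3%. What part such reads have in the difference between centromeres and arms was not tested. The 12 members that overlap a pseudogene locus had 2 above and 6 below downstream, and 3518 of 4841 pseudogenes (72.7%) lay below 0.8.

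**Figure D5:**
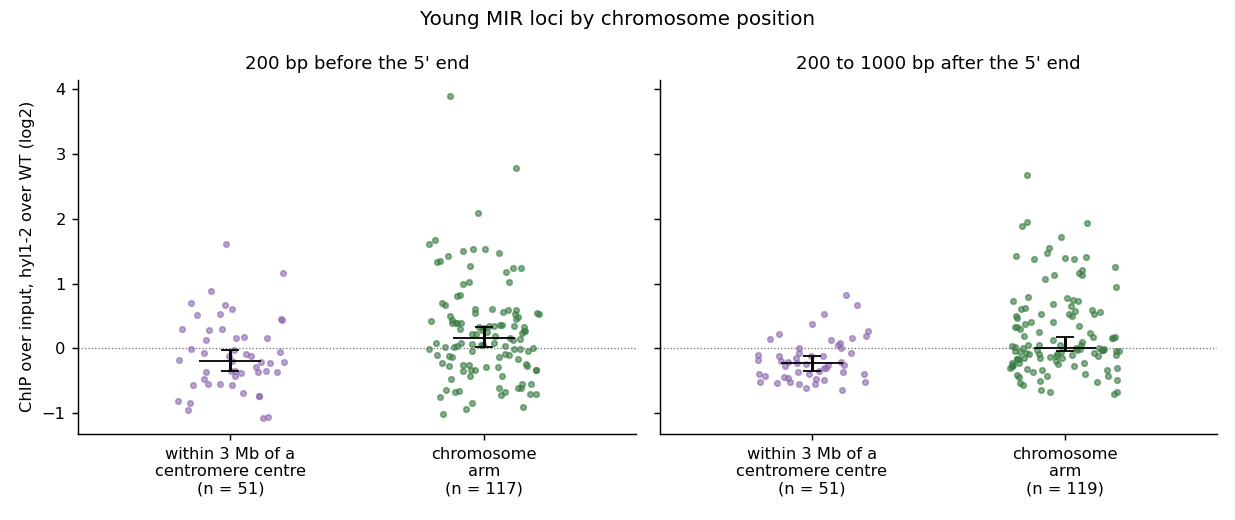
Fold change (log2) of young MIR loci within 3 Mb of a centromere centre and on chromosome arms, in the promoter (left) and downstream (right). Points are loci, black bars are medians with 95% intervals; the median near centromeres lies below 0 in both windows (−0.19 and −0.22) and that on arms at or above 0 (0.16 and 0.00), with wide overlap of the points.

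The repeated families differed from each other. The 5 MIR854 loci overlap pseudogene loci near the centromere of chromosome 5, in sequence known as retrotransposon copies, with at least 97.3% sequence identity between any 2 hairpin loci and 37766 to 211081 bp to the nearest protein-coding gene. From 97.3% to 99.9% of their downstream reads had mapping quality 0, so reads cannot be assigned to single copies. Their ChIP over input ran from 1.413 to 1.504 in hyl1-2 and from 1.82 to 2.21 in WT downstream, with fold changes from 0.643 to 0.778 at all 5. In the most crowded copy, MIR854b, 44.5% of the possible read positions were filled in the hyl1-2 ChIP library and 69.7% in the WT ChIP library. What part this filling has in the fold changes was not tested.

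The 6 MIR8167 loci are identical over the annotated 75 bp hairpin but lie on chromosomes 2, 3 and 5, and 60.5% to 100% of their promoter reads had mapping quality 0. Their downstream windows were mostly unique (1.99% to 20.5% of mapping quality 0, MIR8167d with 60.9% excepted) and gave fold changes from 0.697 at MIR8167b (0.527 to 0.922) to 3.82 at MIR8167c, with a median of 1.03. Identical hairpins thus stood in neighbourhoods with different RNA Pol II. The 6 MIR5645 loci ranged from 0.516 (MIR5645e) to 2.42 (MIR5645a, 1.22 to 4.81) in the promoter and from 0.759 to 1.48 downstream. The 4 MIR5635 loci had downstream values from 0.949 to 1.93, the highest at MIR5635b (1.39 to 2.68). Of the 3 MIR405 loci, MIR405a with 0.740 (0.558 to 0.981) and MIR405d with 0.771 (0.599 to 0.994) were lower downstream and MIR405b, next to HVA22E, was higher with 1.44 (1.09 to 1.90). At MIR405a 68.0% of the downstream reads had mapping quality 0, so they may come from other places, and at MIR405d 0.784% had it. The 3 MIR5020 loci lay between 0.810 and 1.06 downstream.

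Among young loci named for their known targets, MIR825 was higher in hyl1-2 in both windows (values above). MIR847, MIR775 and MIR863 also have known targets, but they were named for their high values and do not count here. The loci that follow, MIR824 excepted, had downstream intervals that held 1. MIR447a, MIR447b and MIR447c, which target 2-phosphoglycerate kinase related genes, lie close together on chromosome 4 and had downstream ChIP over input from 1.09 to 1.204 in hyl1-2 and from 1.29 to 1.404 in WT, and all 3 intervals of their fold changes (0.812 to 0.864) held 1. MIR773a and MIR773b, which target the DNA methyltransferase gene MET2, had 0.833 (0.616 to 1.13) and 0.903 (0.673 to 1.21). MIR842 and MIR846, neighbours that target jacalin lectin genes, had 1.04 (0.798 to 1.34) and 0.945 (0.719 to 1.24). MIR858a and MIR858b, regulators of MYB genes of flavonoid synthesis whose windows overlap each other, had 0.844 (0.624 to 1.14) and 0.837 (0.625 to 1.12). MIR780, which targets the transporter gene CHX18, had 1.04 (0.767 to 1.397). MIR822, an inverted duplicate of its own target genes, had 1.07 (0.779 to 1.46), and MIR2111a and MIR2111b, which rise on phosphate starvation, had 0.852 (0.604 to 1.203) and 1.13 (0.834 to 1.54). MIR824, which targets AGL16, a regulator of stomatal development, was higher downstream with 1.43 times input in hyl1-2 and 1.01 in WT (1.42, 1.096 to 1.84), in a window shared with AT4G24413 on the other strand, and had 1.25 (0.803 to 1.94) in the promoter.

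The list of reported targets of young miRNAs holds 14 genes, some of them (SUVH5, SUVH6 and CMT3) targets of miR778 and miR823, whose loci are not among the members. Downstream, 2 lay above 1.2 and 6 below 0.8, beside 28.3% and 28.1% of all genes, with a median fold change of 0.884. AGL16 (miR824) had 1.47 (1.09 to 1.98) and CHX18 (miR780) had 1.84 (1.42 to 2.38). The jacalin genes AT1G52060 and AT5G28520 (miR842 and miR846) were lower, with 0.557 (0.414 to 0.748) and 0.732 (0.537 to 0.997), as were SUVH5 (miR778) with 0.685 (0.517 to 0.909) and AT3G27150 (miR2111) with 0.732 (0.544 to 0.986). CMT3 (miR823), MET2, MYB11, MYB12, MYB111, SUVH6 and AT5G60760 had downstream intervals that held 1. In the promoter, 12 targets passed the minimum, 5 above and 3 below, beside 50.6% and 18.5% of gene promoters. The promoter interval lay wholly above 1 at 4 targets and wholly below 1 at 1, beside 26.7% and 6.19% of gene promoters. Among the 4 were AT3G27150 with 2.54 (1.32 to 4.89), AT5G60760 with 2.07 (1.05 to 4.07) and MYB12 with 1.65 (1.01 to 2.68). The 1 below was MYB111 with 0.609 (0.392 to 0.948). AT3G27150 was thus higher in the promoter and lower downstream.

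As a level rather than a difference, RNA Pol II at young MIR loci was mostly at or under the input. Downstream, the interval of ChIP over input stood above 1 at 33 members in hyl1-2 and at 37 in WT. It stood below 1 at 78 and 79. The ratio itself lay above 1 at 61 of 170 members in hyl1-2 and at 66 in WT. Among all 37895 genes it did so at 20226 and 19507, with a median of 1.02 in both genotypes. The median of intergenic windows at least 1000 bp from any gene was 0.639 in hyl1-2 and 0.608 in WT. The highest level belonged to MIR5651, with 7.03 in hyl1-2 and 4.22 in WT (fold change 1.67, 1.32 to 2.11). MIR5651 overlaps the 3′ end of RDUF1, a RING finger gene on the other strand, and 86.8% of the possible positions were filled in hyl1-2 and 58.4% in WT (what part this has in its fold change was not tested). MIR5999, beside the glucosinolate methyltransferase gene IGMT4, had 3.21 in hyl1-2 and 1.87 in WT (1.72, 1.36 to 2.17). The lowest levels in hyl1-2 were those of MIR1887, MIR5645a with 0.229 (0.155 in WT), MIR406 with 0.241 (0.248 in WT) and MIR8121.

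The letters TATAAA, the core of a TATA box, stood on the strand of the gene in the 250 bp before the 5′ end of 58 members (34.1%), 47 of 100 other MIR loci and 11484 of 37897 annotated genes (30.3%). They were found at 8 of the 26 members whose promoter interval lay above 1, at 5 of the 20 below and at 44 of the 122 in between. The letters CCAAT, read on both strands, were found at 70 members (41.2%) and at 44.8% of all genes, and at 14 of the 26 members with intervals above 1, 12 of the 20 below and 43 of the 122 in between. A match is a description and not a site. The promoter windows of MIR847 and MIR779, where RNA Pol II was higher in hyl1-2, each hold TATAAA and are printed from the TAIR10.1 reference, 5′ to 3′ on the plus strand. Capitals mark TATAAA on the strand of the gene, and also the letters CCAAT where found on either strand.
MIR847, chr1:2165317-2165516: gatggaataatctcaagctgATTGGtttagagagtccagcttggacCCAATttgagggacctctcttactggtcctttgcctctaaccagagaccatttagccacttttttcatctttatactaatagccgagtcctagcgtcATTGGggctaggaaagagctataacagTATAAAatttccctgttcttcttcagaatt
MIR779, chr2:9560561-9560760: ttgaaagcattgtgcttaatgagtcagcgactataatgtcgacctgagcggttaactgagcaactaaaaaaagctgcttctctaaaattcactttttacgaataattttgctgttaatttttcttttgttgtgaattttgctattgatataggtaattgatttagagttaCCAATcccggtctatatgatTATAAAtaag
TATAAA begins 30 bp before the annotated 5′ end at MIR847 and 10 bp at MIR779.

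Of the 170 members 2 missed the minimum of 10 reads in the promoter. MIR5649b had 1 ChIP read in hyl1-2 and 0 in WT over 35 and 33 input reads, and MIR5633 had 23 and 9 over 65 and 64. MIR5649a and MIR5649b are annotated at the same place on opposite strands, so the promoter of one is the far side of the other. Downstream, MIR5633 gave 1.73 (1.26 to 2.39) and MIR5649b 0.761 (0.574 to 1.01).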

How the data were processed

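The 4 deposited files list 1 extended read per line, from leaves of 1 hyl1-2 and 1 WT sample set (input and ChIP). Per the study's methods the authors aligned trimmed reads to TAIR10 with Bowtie, removed duplicates with SAMtools and extended the reads. In the deposited files the intervals are 200 bp (ChIP) or 175 bp (input), the score column holds mapping quality (0 or 255 only), and no 2 reads of a library share position and strand. The longer ChIP interval raises ChIP over input slightly in both genotypes and cancels in the fold change.

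Here a read was counted for a window when 1 bp or more overlapped (Python 3.11.15, NumPy 2.4.6, pandas 2.3.3) and divided by all reads of the library. Reference genome and genes were RefSeq TAIR10.1, with the same chromosome lengths as TAIR10. Windows with under 10 reads in any library were left out, limits were 1.2 and 0.8, and intervals came from the 4 counts and were checked on simulated counts. The simulated counts held counting error only, without the limit of 1 read per position and strand, so they do not check filled windows. Hairpin identities came from global alignments (Biopython 1.88) and figures from Matplotlib 3.10.9. Named loci were the 6 highest and 6 lowest fold changes per window whose interval did not hold 1, the 4 highest and 4 lowest hyl1-2 levels downstream, families of 3 or more loci, loci with known targets, and loci missing the minimum; any other is named for its neighbours, for a shared non-coding gene or for filled windows. Members and lists were chosen with earlier results of these data known. Alternatives changed the scaling, read assignment, minimum, limits, GC content, members and window. Of the listed targets, 1 is counted but its values are not reported here.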

Additional observations from a re-analysis of the deposited data

Results flagged for a closer look

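Windows are listed here where ChIP over input lay above 1 in hyl1-2 and below 1 in WT, with both counting intervals clear of 1. The difference between genotypes was not tested, since each has 1 library. In the promoter these were MIR8166 with a fold change of 14.9 (3.42 in hyl1-2, 0.229 in WT), MIR847 with 6.89 (1.81 and 0.263) and MIR5657 with 3.04 (1.88 and 0.618). Downstream they were MIR8166 with 6.36 (1.54 and 0.243), MIR775 with 3.86 (1.61 and 0.416), MIR8167c with 3.82 (2.08 and 0.545), MIR779 with 3.28 (1.65 and 0.501), MIR4228 with 2.66 (1.77 and 0.665) and MIR8176 with 2.60 (1.31 and 0.502). MIR779, MIR4228 and MIR8176 have no protein-coding gene in either window. MIR4228 and MIR8176 share their strand with annotated non-coding genes, for MIR8176 a small nucleolar RNA gene among them.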

How the results depend on the processing

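Scaling on intergenic windows lowered all genes by 0.17 on the log2 scale (a shift of −0.17) and moved the medians of the young loci to −0.12 (promoter) and −0.21 (downstream), with 62 downstream windows below 0.8. The correction for GC content gave a promoter median of −0.19 and 40 promoters above 1.2. Among windows with at least 50 reads, 37 of 91 promoters were above 1.2 and 21 below 0.8. With limits of 1.5 and its inverse, 33 promoters were above and 23 below, and 31 downstream windows above and 6 below. On chromosome arms alone, 25 promoters and 18 downstream windows were below 0.8, and without a protein-coding gene in the window 27 downstream windows were above 1.2; both leave fewer loci. The promoter median, 0.04 with all reads as the base, thus changed sign under both the intergenic base and the GC correction, and its interval lay wholly below 0 with the GC correction (−0.32 to −0.08) but held 0 with all reads and with the intergenic base (−0.24 to 0.03). The downstream median lay wholly below 0 with the intergenic base (−0.28 to −0.16), with the GC correction (−0.14 to −0.01) and over windows without a protein-coding gene (−0.20 to −0.03). The causes were not tested. Leaving out MIR5642a was added after seeing the data. Of 1098 alternative values for the named loci, 1095 stayed within counting error. This error is wide at single loci: the GC correction moved none of 128 named values beyond it, although it moved the promoter median. Without reads of mapping quality 0, the MIR8167a promoter went from 1.02 to 0.665. With reads counted by midpoint, MIR5020a went from 0.778 to 0.408 and MIR5645d from 1.23 to 0.580, both in the promoter. MIR5645d thus crossed from above 1.2 to below 0.8, with intervals that held 1 both times (0.726 to 2.08 and 0.251 to 1.34). No paired analysis was possible because each genotype has 1 ChIP and 1 input library, so no replicate could be left out either.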
